A study of Oryza sativa with 8 samples.

Results

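The genes described here had a lower messenger RNA level in the pre-emerged panicle of rice plants with a knockdown of RNA polymerase IV, with a smaller change in their anthers. The genes were chosen by these measured values, since a gene was included where log2(FPKM + 1) in panicle was lower in the knockdown than in the wild type (WT) by at least 2, and where the same difference in anther was under 1 in absolute value. FPKM stands for fragments per kilobase of transcript, set relative to all mapped fragments of the library, and the rows that carry 1 gene name were added up. The rule gave 177 genes out of 30154 gene names in the table. Both contrasts chose the genes, so the values in the 4 groups are given as a description, with no test.

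The 4 groups were WT anther, nrpd1 knockdown anther, WT pre-emerged panicle and nrpd1 knockdown pre-emerged panicle, all from the Indica cultivar Pusa Basmati 1 (PB1) grown in a green house. The knockdown lines, labelled nrpd1_kd, were lowered for NRPD1, the largest subunit of RNA polymerase IV. How the knockdown was made, how many lines it covered and the age of the plants are not given in the sources used here. Anthers were taken before dehiscence, the opening that sheds pollen. The labels list 2 libraries per group, but the table holds 1 value per gene and group, so no value has an error and no difference has a replicate check.

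In plants, RNA polymerase IV transcribes the precursors of small interfering RNAs. Those small RNAs guide DNA methylation to transposons and repeats, and genes near such repeats can change when the pathway is lowered. The panicle is the branched flowering shoot of rice. Before it emerges from the leaf sheath it holds branches, spikelets, lemma and palea together with the anthers inside the florets. A whole panicle therefore mixes many cell types, and in bulk RNA fewer cells of a type and less RNA per cell cannot be told apart.

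Gene identities could be read only as far as the table names them. Of the 177 genes, 175 carried an Os number alone and 2 carried a symbol, ACBP2 and Cht8. A search of RefSeq's rice genes (assembly ASM3414082v1) matched none of the Os numbers, so no role is given for them. Cht8 was found there as a synonym of LOC4349267, on chromosome 10 in both sources. A list of 86 symbols of flower, panicle, methylation, tapetum and pollen genes was looked up, 9 of them were found in the table, and 0 of those were among the 177 genes. With 177 genes among 30154 names, a 0 among so few is no result about these lists. A listed gene that carries only an Os number would be missed by this search, so whether it is in the set is not known. Of the tapetum list MSP1 was found, a receptor kinase gene of early anther development, at 1.15 FPKM in WT anther, 3.65 FPKM in knockdown anther, 2.997 FPKM in WT panicle and 8.497 FPKM in panicle of the knockdown. MSP1 was thus higher in panicle than in anther in each genotype. None of the genes fixed as markers of tapetum or pollen cells, and none of the pollen list, was found by symbol, and the level of NRPD1 was not analysed here.

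Among the 18655 genes that reached 1 FPKM in either panicle column, 691 (3.7%) had a knockdown minus WT difference of -2 or lower. These 691 genes divided into the 177 described here (0.949% of the 18655), 471 that were also lower in knockdown anther by at least 1, and 43 that were higher there by at least 1. The anther criterion was a common state, since 25% of the 17943 genes compared in anther changed by at least 1 in either direction. Only genes of at least 3 FPKM in WT panicle could pass the panicle criterion, and the 177 were 1.35% of the 13142 genes at that level.

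**Figure D1:**
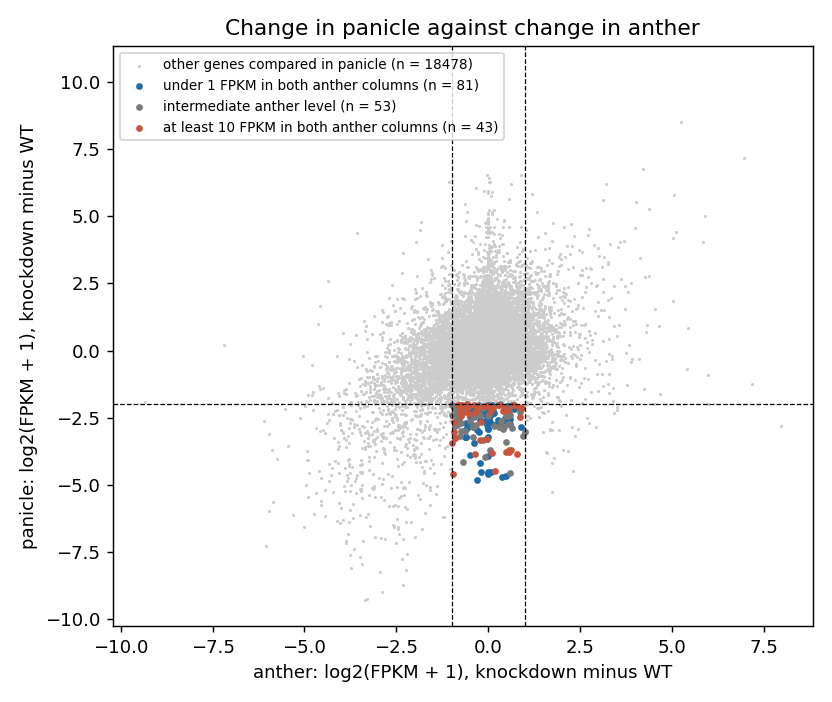
Each point is a gene, with the knockdown minus WT difference of log2(FPKM + 1) in anther on the x axis and in panicle on the y axis. Dashed lines mark the thresholds at -2 in panicle and at -1 and 1 in anther, coloured points are the 177 genes by their anther level, and grey points are the other genes compared in panicle. The coloured points reach down to -4.82, while grey points further to the left fall lower.

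The panicle difference of the 177 genes ran from -4.82 to -2.004 with a median of -2.50. It was above -2.5 for 88 genes, at most -3 for 44 and at most -4 for 12. WT panicle levels ran from 3.03 to 1471 FPKM with a median of 13.9 FPKM, and 105 genes had at least 10 FPKM there. The knockdown panicle level had a median of 0.997 FPKM and a highest value of 337 FPKM. As a share of WT panicle, the level left in knockdown panicle had a median of 8.08%, quartiles of 2.56% and 13.4%, and a highest value of 23.1%.

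The transcript was not lost from knockdown panicle in every case. In knockdown panicle 18 genes were listed at 0, which is 10.2% of the 177, beside 1.11% of all genes of at least 3 FPKM in WT panicle. The rule selects low values in knockdown panicle, so nothing is read from the difference between these shares. Among the 471 genes lower in both tissues 26.8% were listed at 0, and among the 43 higher in knockdown anther 4.65% were. The 18 genes were weak in WT panicle, between 3.03 and 13.9 FPKM. A further 20 genes kept at least 10 FPKM in knockdown panicle, so for them the level was lowered and the transcript was still present. The median there over all genes of at least 3 FPKM in WT panicle was 11.7 FPKM.

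The anther levels covered a wide range. WT anther had a median of 1.08 FPKM with quartiles of 0.147 and 12.2 FPKM, and knockdown anther had a median of 1.13 FPKM with quartiles of 0.111 and 10.5 FPKM. The anther difference had a median of -0.03, beside -0.15 for all genes compared in anther. It was above 0 for 68 genes, below 0 for 97 and exactly 0 for 12, and these 12 genes were listed at 0 in both anther columns. The genes were divided by anther level into 3 classes, chosen after the values were seen.

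The first class held 81 genes (45.8%) under 1 FPKM in both anther columns. With 1 added to each value, a gene under 1 FPKM in both columns cannot differ by 1 on the log2 scale, so these 81 genes met the anther criterion by their low level alone. Among all genes of at least 3 FPKM in WT panicle, 4.16% were under 1 FPKM in both anther columns. The 81 genes had medians of 0.13 FPKM in WT anther, 0.0643 FPKM in knockdown anther, 10.01 FPKM in WT panicle but 0.638 FPKM in knockdown panicle. For 74 of the 81, WT panicle stood above each of the other 3 columns by at least 2 on the log2 scale. The rule and the class limit together largely fix this count, so nothing is read from it.

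The second class held 43 genes (24.3%) of at least 10 FPKM in both anther columns. Their medians were 28.6 FPKM in WT anther, 25.6 FPKM in knockdown anther, 28.1 FPKM in WT panicle but 2.26 FPKM in knockdown panicle. For 32 of the 43, knockdown panicle stood below each of the other 3 columns by at least 2 on the log2 scale. Here too the rule and the class limit favour the pattern, and nothing is read from the count. None of the 43 was listed at 0 in knockdown panicle.

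The remaining 53 genes (29.9%) lay in between, with medians of 3.15 FPKM in WT anther, 2.94 FPKM in knockdown anther, 13.3 FPKM in WT panicle but 0.859 FPKM in knockdown panicle. Over all 177 genes, WT panicle alone was high for 97, knockdown panicle alone was low for 40, and neither held for 40. The set holds genes whose WT panicle value stands apart and genes whose knockdown panicle value stands apart. Which of these a gene shows is largely set by the rule and its anther level, so nothing is read from these counts.

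**Figure D2:**
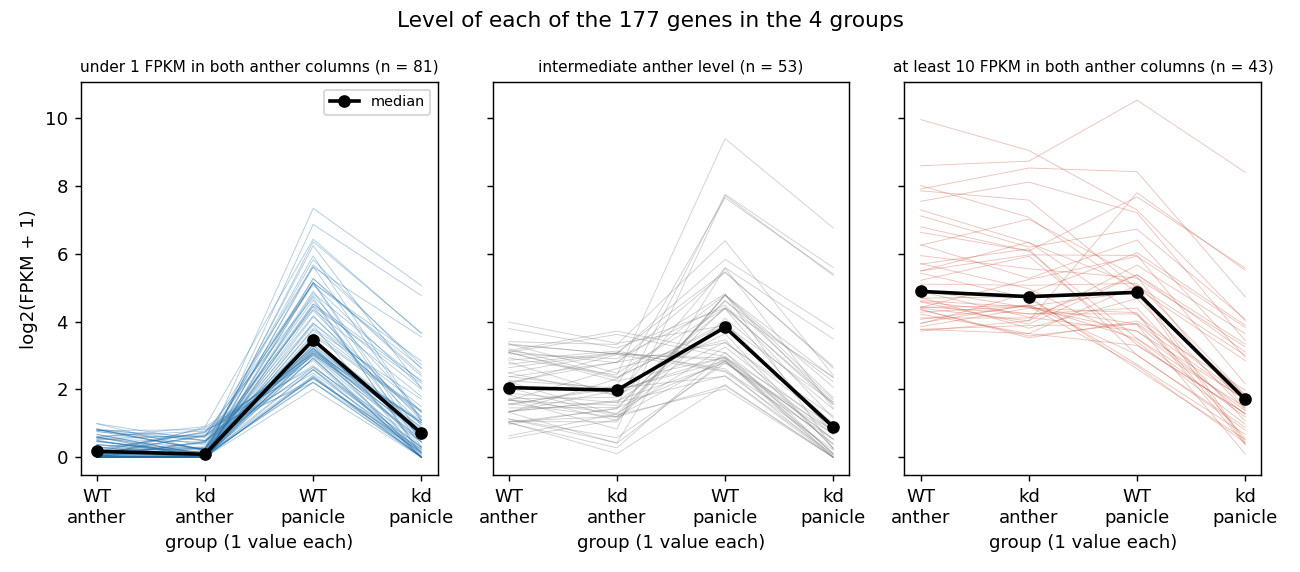
Each thin line is a gene and joins its log2(FPKM + 1) in WT anther, knockdown (kd) anther, WT panicle and knockdown panicle, with 1 value per group and the class median in black. The 81 genes under 1 FPKM in both anther columns peak in WT panicle, as the rule and the class limit require. The median of the 43 genes of at least 10 FPKM in both anther columns is level over 3 columns and low in knockdown panicle. Single genes of this class vary, with 14 lower and 8 higher in WT panicle than in WT anther by at least 1.

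Both genes with a symbol were expressed in anther. ACBP2, named for an acyl-CoA-binding protein, a carrier of activated fatty acids (chromosome 6, 860812 to 862571, build not stated), stood at 16.2 FPKM in WT anther, 16.2 FPKM in knockdown anther, 40.7 FPKM in WT panicle but 9.09 FPKM in knockdown panicle. As deposited, the 2 anther values were nearly equal, and only the panicle values stood apart, with a log2 difference of -2.05 close to the threshold. The anther difference of ACBP2 was 0.31 with quantile normalization and 0.84 with equal column totals, both inside the rule. Cht8, named for a chitinase, an enzyme that cuts the chitin of fungal walls (chromosome 10, 21205681 to 21207611), stood at 15.8 FPKM in WT anther, 21.0 FPKM in knockdown anther, 5.45 FPKM in WT panicle but 0.345 FPKM in knockdown panicle. Its log2 difference was -2.26 in panicle and 0.39 in anther, and both panicle values were below both anther values. With the anther share described further on subtracted from WT panicle, the panicle difference of Cht8 was -1.98, outside the rule. With equal column totals its anther difference was 1.24, which is outside the rule as well.

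The lowest panicle differences were mostly those of genes nearly silent in anther. Os01g0910900 (chromosome 1, 39682735 to 39683433) had the lowest, -4.82, with 0.476 FPKM in WT anther, 0.196 FPKM in knockdown anther, 60.3 FPKM in WT panicle but 1.16 FPKM in knockdown panicle. Os12g0569500 (chromosome 12, 23435457 to 23437712) went from 34.3 FPKM in the WT panicle to 0.349 FPKM in the knockdown, and was at 0.0401 and 0.341 FPKM in WT and knockdown anther. Only WT panicle was high for both genes. With a pseudocount of 0.1 the anther difference of Os12g0569500 was 1.66, outside the rule, although both its anther values were under 1 FPKM.

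Os11g0256900 (chromosome 11, 8457134 to 8469354) left the smallest share among the genes with the lowest panicle differences, 0.106%, falling from 25.1 to 0.0267 FPKM in panicle, with 0.193 and 0.661 FPKM in WT and knockdown anther, which a pseudocount of 0.1 turned into an anther difference of 1.38. Os04g0282400 (chromosome 4, 12062903 to 12063831) went from 28.8 to 0.239 FPKM in panicle and was at 0.0335 and 0.0242 FPKM in anther. Os02g0134700 (chromosome 2, 1837797 to 1838990) went from 23.8 to 0.076 FPKM in panicle and was at 0.144 and 0.203 FPKM in anther. Os08g0189850 (chromosome 8, 5254275 to 5255435) went from 48.1 to 1.11 FPKM in panicle and was at 0.737 and 0.508 FPKM in anther. In each of these genes the 3 columns other than WT panicle were at or under 1.11 FPKM.

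Of the 10 lowest panicle differences, 3 belonged to genes above 1 FPKM in both anther columns. Os03g0629800 (chromosome 3, 24046130 to 24047441) stood at 156 FPKM in WT anther, 78.9 FPKM in knockdown anther, 32.2 FPKM in WT panicle but 0.367 FPKM in knockdown panicle. Its anther difference of -0.97 was close to the limit of the rule as deposited, but was -0.16 with quantile normalization and -0.08 with equal column totals. Os01g0281000 (chromosome 1, 10003842 to 10011719) stood at 18.4 FPKM in WT anther, 20.9 FPKM in knockdown anther, 28.4 FPKM in WT panicle but 0.305 FPKM in knockdown panicle. Here the first 3 columns were alike and knockdown panicle alone was low, with a log2 difference of -4.49. That holds for the deposited scaling, since its anther difference was 0.18 as deposited, 0.54 with quantile normalization and 1.03 with equal column totals. The row joining Os09g0472900,Os09g0473050 (chromosome 9, 18067435 to 18084827) was at 3.63 and 5.99 FPKM in anther and went from 27.3 to 0.184 FPKM in panicle, and its reads cannot be divided between its genes. Its anther difference of 0.59 became 1.32 with equal column totals.

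The most abundant genes in WT panicle were mostly lowered by smaller factors, and all but 2 of the 10 kept more than 10% of their level. This follows in part from the rule, since with 1 added to each value a weak gene passes only with a smaller share left. Os01g0200700 (chromosome 1, 5478544 to 5479805) was the most abundant, with 385 FPKM in WT anther, 423 FPKM in knockdown anther, 1471 FPKM in WT panicle but 337 FPKM in knockdown panicle. Its knockdown panicle level was thus close to its anther levels, and 22.9% of WT panicle was left. Its anther difference of 0.14 became 1.47 with quantile normalization and 1.03 with equal column totals, both outside the rule. Os12g0274750 (chromosome 12, 10080392 to 10081661) went from 670 to 107 FPKM in panicle and was at 6.599 and 4.37 FPKM in WT and knockdown anther. Os07g0688700 (chromosome 7, 29268271 to 29270013) went from 221 to 44.7 FPKM in panicle, with 20.05 and 15.2 FPKM in anther.

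Several of these abundant genes were near absent from anther. Os04g0401000 (chromosome 4, 19835113 to 19836992) was at 2.19 and 1.89 FPKM in WT and knockdown anther and went from 214 to 47.3 FPKM in panicle. Os01g0102850 (chromosome 1, 163280 to 173194) was at 1.91 and 3.32 FPKM in anther and went from 199 to 41.3 FPKM in panicle, with an anther difference of 0.57 that became 1.19 with equal column totals. Os03g0165000 (chromosome 3, 3486727 to 3500181) was at 0.289 and 0.192 FPKM in anther and went from 160 to 32.4 FPKM in panicle. In all 3 genes knockdown panicle still exceeded both anther columns, and between 20.2% and 22.1% of the WT panicle level was left. Os02g0771600 (chromosome 2, 32558635 to 32562784), with 98.1 and 66.6 FPKM in anther and 203 and 46.7 FPKM in panicle, stood apart from these, with a WT panicle level 2.07 times that of WT anther.

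In WT, 35 of the 177 genes (19.8%) were more abundant in anther than in panicle, 14 of them by at least 1 on the log2 scale. The highest anther levels among the 35 genes are given here. Os02g0725500 (chromosome 2, 30157448 to 30158717) had the highest anther level of the set, with 989 FPKM in WT anther, 526 FPKM in knockdown anther, 156 FPKM in WT panicle but 15.4 FPKM in knockdown panicle. Os07g0592733 (chromosome 7, 24149667 to 24152074) was at 256, 134, 28.1 and 2.53 FPKM in the same order. The row joining Os04g0453266,Os04g0453300,Os04g0453450 (chromosome 4, 22622398 to 22633355) was at 230, 190, 30.7 and 6.21 FPKM. In these 3 rows the WT panicle level was 0.157, 0.11 and 0.133 times that of WT anther. The last 2 left the set when the anther share described further on was subtracted from WT panicle, with panicle differences of -1.54 and -1.04.

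Comparing the WT columns, 124 of the 177 genes (70.1%) had a log2 level at least 1 higher in panicle than in anther, beside 20.9% of all genes of at least 3 FPKM in WT panicle. Another 39 (22%) were within that distance in either direction, and 14 (7.91%) were lower in panicle, beside 17.2% of all such genes. For the 160 genes above 0 in WT anther, the median WT panicle level was 7.9 times that of WT anther, with quartiles of 1.29 and 65.3 times. Since 81 genes were held to the set by a low anther level, part of this tilt towards panicle follows from the rule.

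The 471 genes that were also lower in knockdown anther had the opposite tilt. Of them, 30 (6.37%) were higher and 387 (82.2%) were lower in WT panicle than in WT anther. Their median WT panicle level was 8.98% of WT anther with quartiles of 7.12% and 24.2%, and their medians were 135 FPKM in WT anther and 18.03 FPKM in WT panicle. The 43 genes that were higher in knockdown anther resembled the 177 in this respect, with 31 (72.1%) higher in WT panicle than in WT anther. These sets are separated by their anther values, so the differences between them are a description and were not tested.

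**Figure D3:**
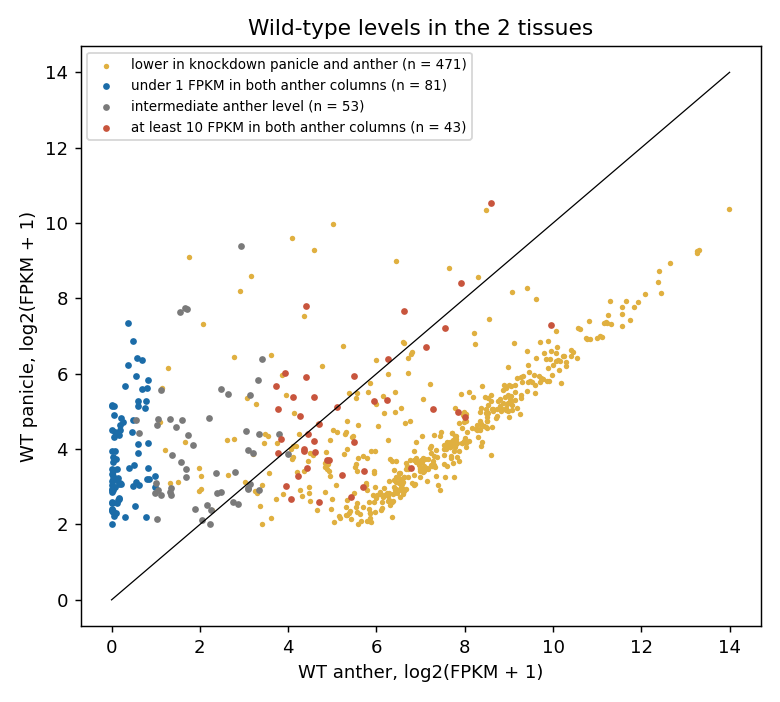
WT anther (x axis) and WT panicle (y axis) levels as log2(FPKM + 1) are plotted for the 177 genes, coloured by anther class, and for the 471 genes also lower in knockdown anther, in yellow; the line marks equal levels. Most yellow points lie along a band below the line, while 124 of the 177 genes lie at least 1 above the line and 14 lie at least 1 below it.

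Genes abundant in WT anther and far lower in knockdown panicle were used to set an anther share for WT panicle. That share was 7.33%, the median ratio of WT panicle to WT anther over 180 genes whose WT anther level reached 200 FPKM and was 100 or more times that of knockdown panicle. The spread of this ratio over the 180 genes is not given here. Of those 180 genes, 1 is in the set. For the 177 genes, 7.33% of the WT anther value came to a median of 0.672% of the WT panicle value, and to more than 10% of it for 21 genes. With that amount subtracted from WT panicle, 159 of the 177 genes still met the rule. The share was set from columns that the rule also used, and for genes low in anther the amount is small by construction. Nothing is read from this count. The part of this share in the result was not tested.

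The highest ratios of WT panicle to WT anther belonged to genes listed at 0 in WT anther. Os04g0171600 (chromosome 4, 4869931 to 4872151) was listed at 0 in both anther columns and went from 34.8 to 0.562 FPKM in panicle. Os04g0191400 (chromosome 4, 6225019 to 6226576) was listed at 0 in both anther columns and went from 34.3 to 6.15 FPKM. Os04g0188433 (chromosome 4, 5931173 to 5931871), also listed at 0 in both, went from 21.9 to 3.81 FPKM. These 3 genes lie within a stretch of chromosome 4 and were silent in anther in the table, but they differed in how much was left in knockdown panicle, from 1.61% to 17.9%. Os12g0538700 (chromosome 12, 21480111 to 21481110) was listed at 0 in both anther columns and went from 14.5 to 1.82 FPKM. Os06g0147000 (chromosome 6, 2453480 to 2454046) was listed at 0 in WT anther, was at 0.381 FPKM in knockdown anther and went from 10.01 to 0.948 FPKM in panicle. Its anther difference of 0.47 became 2.27 with a pseudocount of 0.1, outside the rule.

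Position was not used by the rule. The genes lay on all 12 chromosomes, and their share among genes of at least 3 FPKM in WT panicle was 1.35% overall. It was highest on chromosome 12, with 18 of 670 genes (2.69%), and chromosome 4, with 24 of 1141 (2.1%). It was lowest on chromosome 3, with 14 of 1863 (0.751%), and chromosome 5, with 10 of 1146 (0.873%). Chromosome 1 held the most, 32 of 1886 (1.7%). Names that share a locus were counted separately in these shares, as on chromosome 12 Os12g0115100 with Os12g0115150 and Os12g0274700 with Os12g0274750.

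**Figure D4:**
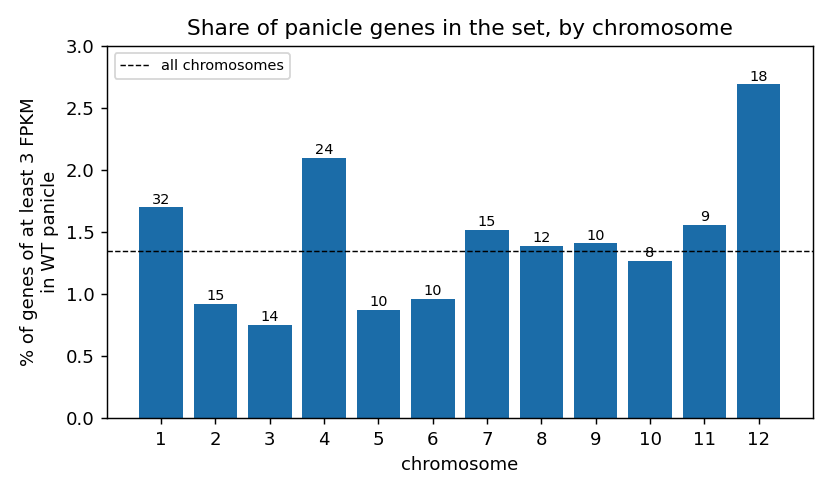
Bars give, for each chromosome, the genes of the set as a percentage of genes of at least 3 FPKM in WT panicle, with the number of genes above each bar and the share over all chromosomes as a dashed line at 1.35%. Chromosomes 12 and 4 have the tallest bars, at 2.69% and 2.1%. Names that share a locus are counted separately.

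In windows of 2 Mb, 96 of 191 windows held a gene of the set and 9 held at least 4. The window with the highest share among those 9, chosen after the values were seen, was chromosome 4 from 4 to 6 Mb, where 4 of 20 genes belonged to the set. They were Os04g0171600 and Os04g0188433, described above, Os04g0168300 (4689002 to 4689586) and Os04g0171800 (4874384 to 4878321). Os04g0168300 was at 0.0599 and 0.586 FPKM in WT and knockdown anther and went from 6.95 to 0.207 FPKM in panicle. Os04g0171800 was at 0.232 FPKM in WT anther, was listed at 0 in knockdown anther and went from 50.1 to 5.62 FPKM in panicle. All 4 genes of this window were under 1 FPKM in both anther columns. The first 2 Mb of chromosome 1 held the largest number, 6 of 99 genes (6.06%), among them Os01g0124650 and Os01g0124700, which share a locus.

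In gene order, 16 names (9.04%) had a neighbouring name in the set, in 7 runs of 2 or 3 names. Some of these names share a locus, and over the 173 distinct loci 12 (6.94%) had a neighbouring locus in the set, in 6 runs of 2 loci each. Among the 457 distinct loci of the genes lower in both tissues 36 (7.88%) did. Both sets were chosen by their values, and no such share over all genes is given here, so these shares are not read as high or low. The runs with the most names had 3 names at 2 loci. On chromosome 1 the run was Os01g0124401 (1353649 to 1354814), with Os01g0124650 and Os01g0124700 sharing 1 locus (1365585 to 1366502). Os01g0124401 was at 138, 72.2, 105 and 15.8 FPKM in WT anther, knockdown anther, WT panicle and knockdown panicle. Os01g0124700 was at 239, 367, 341 and 25.6 FPKM in that order. These neighbours were lower together in knockdown panicle and had anther differences of -0.92 and 0.62 as deposited. These values became -0.13 and 1.78 with quantile normalization and -0.03 and 1.51 with equal column totals.

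On chromosome 12 the run was Os12g0115100 and Os12g0115150, which share 1 locus (737300 to 738870), with Os12g0115300 (746148 to 747120). Os12g0115150 was at 186, 275, 147 and 9.83 FPKM in WT anther, knockdown anther, WT panicle and knockdown panicle. Os12g0115300 was at 2.28, 0.781, 209 and 40.1 FPKM. The first was abundant in anther and the second nearly absent there, although both were lower in knockdown panicle. The anther difference of Os12g0115150, 0.57 as deposited, became 1.64 with quantile normalization and 1.46 with equal column totals. That of Os12g0115300, -0.88 as deposited, became -1.43 with a pseudocount of 0.1, outside the rule.

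Among the other runs, pairs at separate loci were seen. Os06g0271400 and Os06g0271500 (chromosome 6, 9126390 to 9128603 and 9130970 to 9136093) went from 17.1 to 0.956 FPKM and from 14.03 to 0.0723 FPKM in panicle. In WT anther the first stood at 0.779 FPKM and the second at 12.7 FPKM. Os11g0655900 and Os11g0656000 (chromosome 11, 26269973 to 26270560 and 26275727 to 26276206) were listed at 0 in both anther columns, and went from 7.82 to 0.44 FPKM and from 6.64 FPKM to a listed 0 in panicle. Neighbours in the set thus shared the panicle difference by the rule, while their anther levels were alike in some pairs and unlike in others.

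Names at 1 locus do not count as separate observations. The value of Os12g0115100 was between 4.06% and 4.62% of that of Os12g0115150 in all 4 columns. Os01g0124650 was between 2.19% and 3.31% of Os01g0124700, and Os12g0274700 was between 2.23% and 3.94% of Os12g0274750. In the first 2 of these pairs the weaker name followed the stronger. Os12g0274700 fell with Os12g0274750 in panicle, but not in anther. There the weaker name went from 0.147 FPKM in WT to 0.172 FPKM in the knockdown, and the stronger from 6.599 to 4.37 FPKM. Whether the reads of the weaker name were its own is not shown for any of these 3 pairs. A further pair at 1 locus, Os01g0871600 with the row Os01g0871400,Os01g0872350, did not keep such a ratio. In all, 47 of the 177 genes (26.6%) shared a locus with another name, beside 35.4% of genes of at least 3 FPKM in WT panicle.

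The loci given in the table were short. A locus can hold several names, and its median span from start to end was 2.17 kb (4.52 kb for genes of at least 3 FPKM in WT panicle), and 82 genes (46.3%) spanned under 2 kb, beside 13.7% of those genes. Short spans were also common among the 471 genes lower in both tissues, at 36.1%, and among the 43 genes higher in anther, at 55.8%. FPKM divides by transcript length, so the same number of reads gives a larger value for a short gene, and the part of length in the set was not tested.

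Most genes filled more than 1 row of the table. Of the 177 genes, 121 (68.4%) had several rows, near the 70% of all genes of at least 3 FPKM in WT panicle. The row stronger in WT panicle made up a median of 97.5% of the sum there. The stronger row met the panicle threshold by itself for 116 of the 121. Of the 122 weaker rows, 119 were lower in knockdown panicle and 0 were higher, but 98 were under 1 FPKM in WT panicle and 1 met the threshold. The rule used the sums of these rows, so their direction is no separate check.

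Genes close to the thresholds differed little across them. Just inside the panicle threshold were Os12g0150200 at -2.004, Os04g0450000 at -2.01 and Os12g0515800 at -2.01, and just outside were Os01g0872900 at -1.99, Os05g0163700 at -1.99 and Os02g0777800 at -1.99. Just inside the anther limit were Os01g0132000 at -0.99, the row Os01g0175500,Os01g0175633,Os01g0175733 at 0.99 and Os09g0400600 at -0.98. Just outside it were Os03g0734100 at -1.002, Os05g0319850 at -1.01 and Os01g0956300 at -1.01. Os01g0132000 (chromosome 1, 1754330 to 1761133), at 75.8, 37.7, 83.7 and 6.76 FPKM in WT anther, knockdown anther, WT panicle and knockdown panicle, lay closest to that limit as deposited. Its anther difference was -0.32 with quantile normalization and -0.11 with equal column totals, but -1.004 with a pseudocount of 0.1, outside the rule. That pseudocount also put the row Os01g0175500,Os01g0175633,Os01g0175733 at 1.34 and Os09g0400600 at -1.21, both outside the rule. Median centring put the same joined row at 1.09.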

How the data were processed

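RNA was sequenced from anther and pre-emerged panicle of WT and nrpd1 knockdown rice with a directional library kit, per the labels' protocols, with 8 libraries in 4 groups. The deposited values are FPKM, per the file headers, with 1 column per group. How the authors combined the 2 replicates, the genome build and the annotation are not given in the sources used here. Trimmomatic, HISAT2 and Cufflinks 2.2.1 are named in the submitters' processing notes without their roles. Among rows under 0.02 FPKM in both columns of a tissue, the commonest ratio between the columns was shared by 3.08% of 389 rows in anther and 9.52% of 126 in panicle, so whole reads were not recovered. Depth is unknown, and no interval or floor is given.

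Rows of the same name were summed, 1 was added, and differences of log2 values were taken. Without replicate columns no limma fit could be made, and there are no p-values. Genes of at least 1 FPKM in either column were compared. Named genes were those with a symbol, the 10 with the lowest panicle difference, the 10 highest in WT panicle, the 5 highest in WT anther, the 5 with the highest WT panicle to WT anther ratio (at least 10 FPKM in WT panicle), the longest runs of neighbours and the 3 nearest each side of each threshold. The genes and lists were chosen with earlier results of these data known. Alternatives were another pseudocount, 3 scalings, single rows, a level filter, other thresholds, joined rows left out and a subtracted anther share. The counting was tested on simulated data, with a strong fall in panicle and no anther change but noise. Only genes of at least 10 FPKM in WT panicle were lowered there. This checks the counting alone, and not the calls near the thresholds or in weaker genes. Python 3.11.15, numpy 2.4.6, pandas 2.3.3 and matplotlib 3.10.9 were used.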

Additional observations from a re-analysis of the deposited data

How the results depend on the processing

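No paired analysis was possible because each group has a lone column without replicate numbers, which also kept single libraries from being left out. The counts concerned are the 177 genes, the 81 under 1 FPKM in both anther columns, the 18 listed at 0 in knockdown panicle, the 124 higher in WT panicle than in WT anther and the 16 names with a neighbouring name in the set (its alternatives were chosen after seeing the data). With a pseudocount of 0.1 these became 435, 231, 111, 254 and 54, and 126 of the 177 genes remained. A mean of at least 5 FPKM left 101, 28, 0, 59 and 10, and a panicle threshold of -3 left 44, 18, 3, 28 and 2. These filters can only reduce the counts. An anther window of 0.5 left 108 genes, 6 of them with a neighbour in the set. Equal totals gave 314 genes with 34 listed at 0, and quantile normalization gave 33 listed at 0 among 260 genes. Under those scalings 146 and 160 of the 177 genes remained, and 172 did with median centring. The median anther difference of compared genes was -0.15 as deposited, 0.60 with equal totals and 0.08 with quantile normalization, so membership by a small anther change depends on the scaling. The median panicle difference moved from -0.03 to -0.17 with equal totals and to 0.11 with the share subtracted. The cause of the other moves was not tested. In 29 other recomputed counts the value stayed within 1.5 times. Over 38 named genes of the set, 218 recomputed panicle values stayed at or below -2, and 10 were nearer to 0 and still negative. Of their anther values 207 stayed under 1 and 21 did not. Outside the set, the panicle difference of Os05g0319850 went from -2.51 to 0.30 with the share subtracted.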
